A study of Mus musculus with 12 samples.

Results

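Cytotoxic lymphocytes, which are natural killer (NK) cells and CD8 T cells, kill target cells with granules that hold perforin and granzymes. Perforin makes pores through which granzymes, a family of serine proteases, enter the target cell and start its death. NK cells read activating and inhibitory receptors on their surface, and interleukin-15 and interleukin-2 keep these cells alive through a receptor that contains the beta chain Il2rb. Such lymphocytes are a minor population of healthy gingiva. The data described here are the levels of 10 genes of this programme among the 21965 genes of a count table from mouse gingiva. They comprise the granzymes Gzma and Gzmb, the pore-forming protein Prf1, the granule membrane protein Nkg7, the receptors Klrd1, Klrk1 and Ncr1, the chemokine Ccl5, the receptor chain Il2rb and the transcription factor Eomes. The genes were chosen by name, by a choice made with earlier results of these libraries known, so their levels and counts are a description of the libraries that led to the choice. Of the 10 genes, 7 passed edgeR's filter on low counts and were tested. Prf1, Ncr1 and Eomes did not pass.

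RNA was sequenced from gingival tissue in 12 libraries of 4 groups, with 3 mice per group that the design text gives as matched for age and sex. WT naive and WT ligated mice were C57BL/6 animals by label (C57BL/6J in the methods), without a ligature or 8 days after a silk ligature was tied around a maxillary molar. CybbKO naive and CybbKO ligated mice carried a knockout of Cybb, the gene for the catalytic subunit of the Nox2 NADPH oxidase, and were untreated or ligated in the same way. The knockout was present in every cell, so it is not a model of loss in lymphocytes alone, and mice were under 12 weeks of age in all groups. The tissue is a whole gingival sample, in which fewer cells of a type and less RNA per cell cannot be told apart.

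The libraries held 27958819 to 42613423 counted reads each. A count of 3 corresponded to 0.0685 to 0.109 CPM (counts scaled to library size with edgeR's TMM factors). Cybb itself had 184, 170 and 115 counts in the WT naive libraries and 338, 580 and 493 in the WT ligated libraries. It had 1441, 2029 and 1505 counts in the libraries labelled CybbKO naive and 2148, 1912 and 2790 in those labelled CybbKO ligated. The targeted gene thus went against its label in every library of that genotype, and no library labelled CybbKO overlapped with WT. Its count therefore separates the labels but does not check which of them is the knockout. Each genotype direction below is a direction between labels. In the third WT naive library Muc5b, a mucin of mucous glands, reached 28943 CPM. In the second library labelled CybbKO ligated the interferon-induced chemokine Cxcl9 reached 74.6 CPM, against 7.13 and 15.9 CPM in the other two of its group. In the first WT naive library Cxcl9 was at 18.9 CPM, against 0.980 and 0.0729 CPM in the other two of its group. The third WT naive and the second CybbKO ligated library by label stand apart most, and values without them are given for some members and comparisons.

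On GRCm38, Gzma lies on chromosome 13 from 113093825 to 113100981 and Gzmb on chromosome 14 from 56258838 to 56262260, both on the minus strand. Klrd1 (129591782 to 129598775, plus strand) and Klrk1 (129610323 to 129623864, minus strand) are neighbours in the NK gene complex on chromosome 6. Ncr1 (4337724 to 4345164) and Nkg7 (43437073 to 43438249) lie on the plus strand of chromosome 7. Eomes lies on the plus strand of chromosome 9 from 118478212 to 118486132, Prf1 on the plus strand of chromosome 10 from 61297833 to 61304680, Ccl5 on the minus strand of chromosome 11 from 83525778 to 83530518 and Il2rb on the minus strand of chromosome 15 from 78479256 to 78495271. No other annotated gene overlapped 9 of the 10 genes. Eomes shares its place with Gm33460 on the opposite strand, which counting by strand, as the methods state it, keeps apart.

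The promoters of the 2 granzymes are shown because both genes had higher levels in the libraries labelled CybbKO in both tissues (values below). Each sequence is the 250 bases before the RefSeq start of the gene on GRCm38.p6, read on the gene's strand, at chr13:113100982-113101231 (minus strand) for Gzma and chr14:56262335-56262584 (minus strand) for Gzmb. Capitals mark matches to the Runx motif TGTGGT on either strand, which reads ACCACA on the other one. Runx3 is a transcription factor of CD8 T and NK cells.
Gzma: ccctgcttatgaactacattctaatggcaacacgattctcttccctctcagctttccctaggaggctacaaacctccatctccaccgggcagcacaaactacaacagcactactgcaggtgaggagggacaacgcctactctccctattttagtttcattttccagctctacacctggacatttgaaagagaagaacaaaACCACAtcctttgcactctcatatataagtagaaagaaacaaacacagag
Gzmb: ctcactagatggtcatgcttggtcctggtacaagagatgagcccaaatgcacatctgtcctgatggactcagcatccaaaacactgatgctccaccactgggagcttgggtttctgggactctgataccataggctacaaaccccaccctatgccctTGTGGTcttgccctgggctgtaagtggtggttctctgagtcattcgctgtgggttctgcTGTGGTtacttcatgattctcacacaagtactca
In Gzma the match lies on the opposite strand, 50 to 45 bases before the start, and in Gzmb matches lie on the gene's own strand, 93 to 88 and 34 to 29 bases before it. The motifs GGTGTG (T-box), AGGAAG (Ets) and TTCNNNGAA (STAT) had no match in either granzyme window on either strand. RefSeq windows were held for 7 of the 10 genes, namely Gzma, Gzmb, Prf1, Nkg7, Klrk1, Ncr1 and Eomes. The Runx letters occurred in the windows of 6 of these 7 genes, all but Eomes, and in 14% of the 32851 windows of that length in the RefSeq table. The Ets letters occurred in 2 of the 7, Prf1 and Nkg7 (29.5% of all windows), and the T-box and STAT letters in 1 each, Nkg7 (16.3% and 7.02%). No match overlapped a match to another motif in these genes. A match is a run of letters and was not tested as a binding site.

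All 10 genes were scarce in gingiva. No library had more than 231 counts for any of them, and the highest single level was 6.02 CPM, for Il2rb. Per kilobase of exon, Klrd1 was the most abundant over the 12 libraries at 2.17 ± 0.814 CPM per kilobase (SD, n = 12), followed by Nkg7 at 1.22 ± 0.922. Ccl5 (0.765 ± 0.783), Il2rb (0.701 ± 0.373), Gzma (0.648 ± 0.688) and Gzmb (0.481 ± 0.441) came next, and these neighbours lay within 1 SD of each other. Klrk1 had 0.251 ± 0.104, Ncr1 0.120 ± 0.0743, Prf1 0.0748 ± 0.0669 and Eomes 0.00977 ± 0.00935 CPM per kilobase. This order pools the 4 groups, and the granzymes' means were higher in the groups labelled CybbKO than in WT. In WT naive tissue the mean of Gzmb, 0.0638 CPM per kilobase, lay below those of Klrk1 (0.198) and Ncr1 (0.0801), and in WT ligated tissue that of Gzma, 0.163, lay below that of Klrk1 (0.223). Eomes, a T-box factor of NK cells, had 17 counts in all 12 libraries together and was at 0 in 3 of them.

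**Figure D1:**
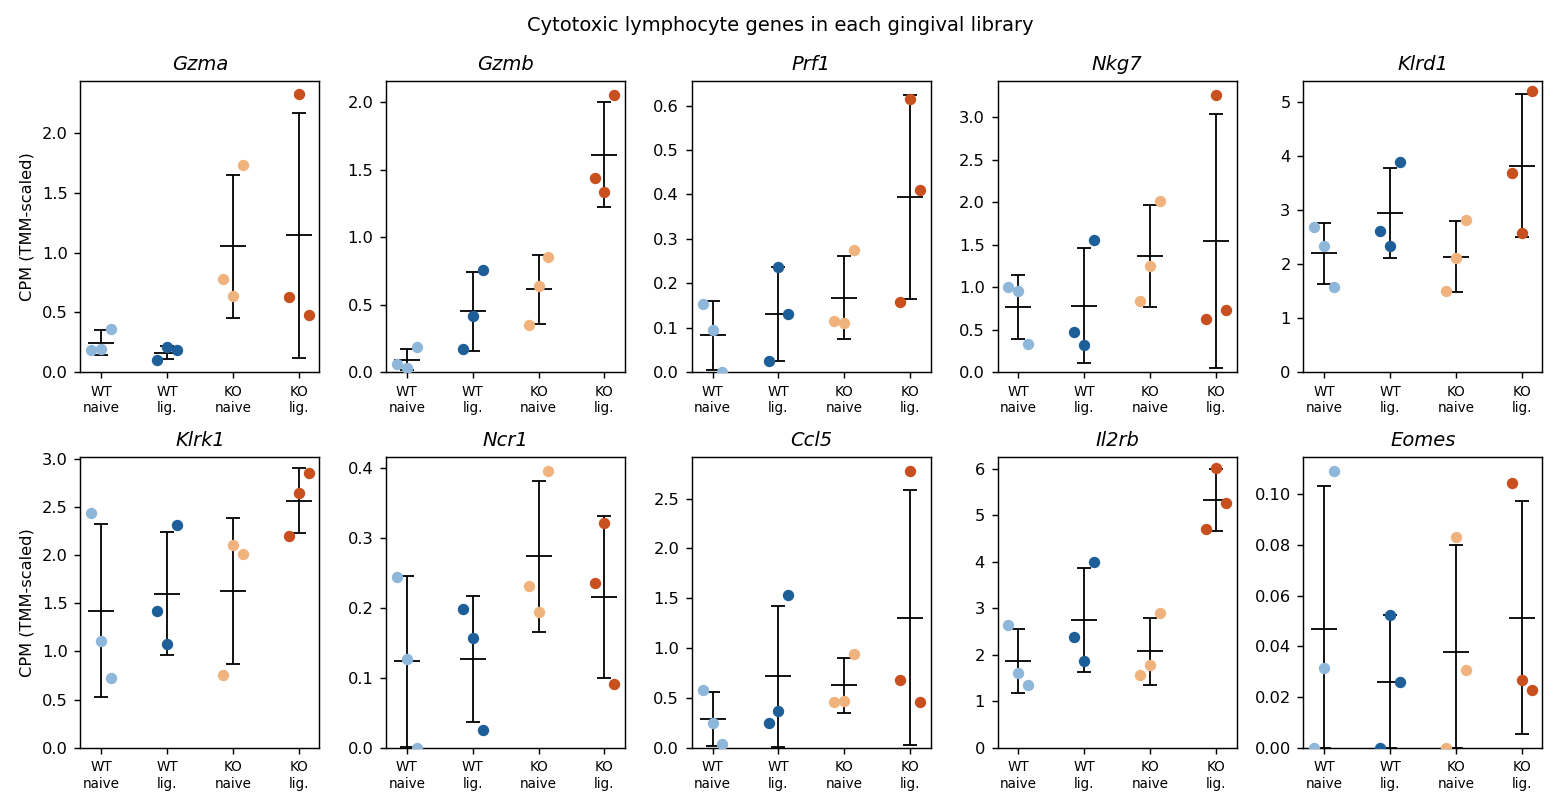
Level of each of the 10 genes in CPM (TMM-scaled, vertical axis from 0) in the 12 libraries, by group (horizontal axis; lig. is ligated, KO is the label CybbKO). Points are libraries, horizontal marks group means and bars 1 SD (n = 3, cut at 0); all 6 KO points of Gzma and of Gzmb lie above the WT points of the same tissue, while most other genes overlap.

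Among the 7 tested members the granzymes had the largest fold changes between the genotype labels. Gzma, a tryptase of cytotoxic granules, had 0.183, 0.190 and 0.364 CPM in the WT naive libraries and 0.779, 0.638 and 1.74 CPM in those labelled CybbKO naive. In ligated tissue it had 0.0996, 0.209 and 0.182 CPM in WT and 0.627, 2.33 and 0.479 CPM in the libraries labelled CybbKO. In each tissue the lowest library labelled CybbKO lay above the highest WT library, and no ligated WT library exceeded 0.209 CPM. Fitted with edgeR over all genes, Gzma was 4.28-fold higher in naive tissue (log2 fold change 2.10 ± 0.67 SE) and 6.86-fold higher in ligated tissue (2.78 ± 0.68). Neither difference was called by edgeR's quasi-likelihood test with Benjamini-Hochberg adjustment over the 15046 genes tested (adjusted p = 1.00 and 0.996). The second library labelled CybbKO ligated carried 87 of that group's Gzma counts, against 24 and 21 in the other two. Without it the ligated difference was 1.74 on the log2 scale, with an edgeR adjusted p of 0.485, and the remaining libraries still did not overlap with WT. The naive difference was 1.53 without the third library labelled CybbKO naive and 2.47 without the third WT naive library.

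Gzmb, the granzyme that cleaves after aspartate and activates caspases, had 0.0609, 0.0316 and 0.182 CPM in the WT naive libraries, which is 2, 1 and 5 counts. It had 0.174, 0.419 and 0.753 CPM in WT ligated, 0.346, 0.638 and 0.854 CPM in CybbKO naive and 1.44, 1.34 and 2.05 CPM in CybbKO ligated libraries by label. The group means stood in the order WT naive, WT ligated, CybbKO naive and CybbKO ligated, at 0.0916 ± 0.0799, 0.448 ± 0.290, 0.613 ± 0.255 and 1.61 ± 0.388 CPM (SD, n = 3). WT ligated and CybbKO naive, the neighbours in the middle, overlapped. By label the CybbKO libraries were higher by 2.74 ± 0.68 on the log2 scale in naive tissue (6.70-fold) and by 1.84 ± 0.53 in ligated tissue (3.58-fold), and edgeR called neither (adjusted p = 1.00 in both). Without the third WT naive library the naive difference was 3.62 on the log2 scale, with an edgeR adjusted p of 0.958. Without the third WT ligated library the ligated difference was 2.43, with an edgeR adjusted p of 0.457.

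Gzma and Gzmb were the only 2 of the 10 genes whose libraries labelled CybbKO all lay above WT in both tissues, which held for 28 of the 15046 tested genes (0.186%), Cybb among them. Of 174 further genes on lists of related functions and cell types, 1 did the same, namely Cd8a, which encodes the alpha chain of the CD8 co-receptor. Cd8a had 0.335, 0 and 0.255 CPM in WT naive and 0.433, 0.749 and 1.34 CPM in CybbKO naive libraries by label. In ligated tissue it had 0.324, 0.314 and 0.208 CPM in WT and 0.522, 1.5 and 0.913 CPM in the libraries labelled CybbKO. Averaged over both tissues, a contrast chosen after these values were seen, Gzma was higher by 2.44 ± 0.48 and Gzmb by 2.29 ± 0.43 on the log2 scale (5.42-fold and 4.90-fold). EdgeR did not call them (adjusted p = 0.707 for both), whereas DESeq2's Wald test did (adjusted p = 0.00563 and 0.00490). As the contrast was chosen after the values were seen, neither result is independent of them. In that contrast edgeR called 0.00665% of all tested genes, 1 gene, which was Cybb, and 0 of the 7 members. DESeq2 called 2 of 10 members and 0.0551% of all genes with an adjusted p, 10 of 18143. With raw p under 0.05, edgeR gave 3 of the 7 members, against 2.46% of all genes tested. Both granzymes passed the filter on low counts mainly through the libraries labelled CybbKO, where 10 counts or more were reached in 6 of 6 for each, against 1 of 6 WT libraries for Gzma and 2 of 6 for Gzmb.

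**Figure D2:**
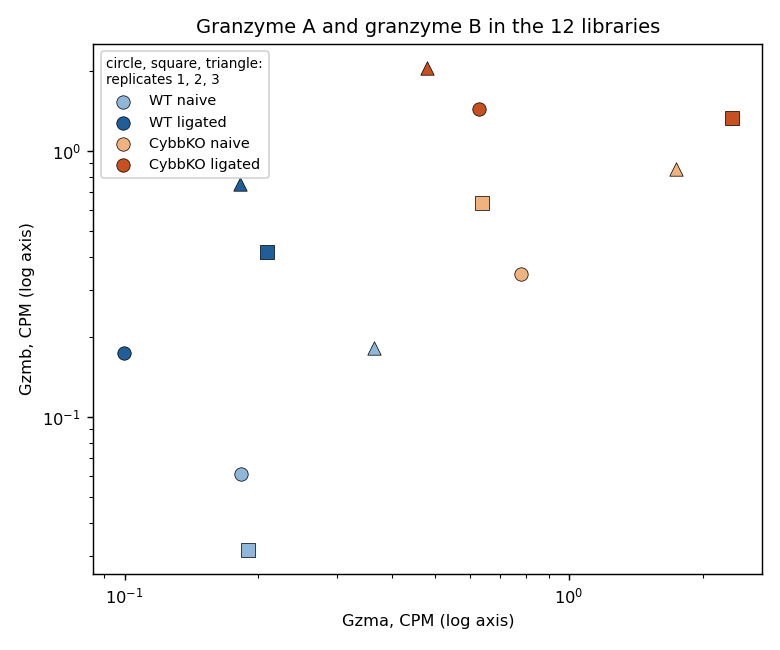
Gzma (horizontal) against Gzmb (vertical), both in CPM on log axes, in the 12 libraries; colours mark the 4 groups and shapes the replicates. The 6 libraries labelled CybbKO lie from 0.479 CPM of Gzma upward, to the right of the 6 WT libraries, and the ligated ones of each genotype label sit mostly higher on the Gzmb axis than the naive ones.

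The other granule genes were less separated. Prf1, the pore-forming protein, had 5, 3 and 0 counts in WT naive, 1, 9 and 5 in WT ligated, 4, 4 and 9 in CybbKO naive and 6, 23 and 18 in CybbKO ligated libraries by label. Its summed level was 0.0871 CPM in WT naive (exact Poisson 95% interval 0.0376 to 0.172, counting error only) and 0.393 CPM in the group labelled CybbKO ligated (0.289 to 0.523). These intervals do not overlap, nor do the libraries of these groups, which differ in both tissue and label. Between the ligated groups the intervals did not overlap either (0.0718 to 0.212 CPM in WT), whereas the libraries did. Nkg7, a membrane protein of cytotoxic granules needed for their release, had 1.00, 0.949 and 0.328 CPM in WT naive and 0.473, 0.314 and 1.56 CPM in WT ligated libraries. It had 0.837, 1.25 and 2.01 CPM in CybbKO naive and 0.627, 3.26 and 0.730 CPM in CybbKO ligated libraries by label. All 4 groups of Nkg7 overlapped with their counterparts, and its ligated genotype difference of 0.97 ± 0.74 on the log2 scale moved with single libraries. Without the second library labelled CybbKO ligated that difference was -0.20, and without the third WT ligated library it was 1.95.

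Levels of Klrd1, Klrk1 and Ncr1 overlapped between the genotype labels in each tissue. Klrd1, the CD94 chain that pairs with NKG2 receptors, had 2.68, 2.34 and 1.57 CPM in WT naive and 2.61, 2.33 and 3.89 CPM in WT ligated libraries. It had 1.5, 2.11 and 2.81 CPM in CybbKO naive and 3.68, 2.57 and 5.20 CPM in CybbKO ligated libraries by label. Its genotype differences were -0.04 ± 0.35 in naive and 0.38 ± 0.34 in ligated tissue on the log2 scale, within about 1 SE of 0. Klrk1, the activating receptor NKG2D, had 2.44, 1.11 and 0.729 CPM in WT naive, 1.42, 1.07 and 2.31 in WT ligated, 0.750, 2.11 and 2.01 in CybbKO naive and 2.19, 2.65 and 2.85 CPM in CybbKO ligated libraries by label. The 3 ligated libraries labelled CybbKO lay above the 3 naive ones of that label, with an edgeR log2 fold change of 0.66 ± 0.48 that was not called (adjusted p = 0.407). Ncr1, the NK receptor NKp46, had between 0 and 13 counts per library, with group sums of 12, 15, 28 and 25 counts in WT naive, WT ligated, CybbKO naive and CybbKO ligated by label. Its libraries overlapped in all 4 comparisons, at a level where 3 counts make up to 0.109 CPM.

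Il2rb, the beta chain shared by the interleukin-2 and interleukin-15 receptors, gave the only call among the 10 genes in the 4 comparisons of the joint edgeR fit without a replicate block. It had 1.56, 1.78 and 2.90 CPM in CybbKO naive and 4.70, 6.02 and 5.27 CPM in CybbKO ligated libraries by label. It rose with ligation in that genotype label, 2.57-fold (log2 fold change 1.36 ± 0.36, edgeR adjusted p = 0.0280), and the libraries did not overlap. The WT libraries had 2.65, 1.61 and 1.35 CPM when naive and 2.39, 1.86 and 4.0 CPM when ligated, a log2 fold change of 0.55 ± 0.36 that was not called (adjusted p = 0.425). The 2 ligature changes differed by 0.81 ± 0.50 on the log2 scale, which the interaction test did not call (adjusted p = 1.00). In ligated tissue the lowest library labelled CybbKO exceeded the highest WT library, with a 1.94-fold difference (0.95 ± 0.35) that edgeR did not call (adjusted p = 1.00). The ligature call was lost, with adjusted p of 0.0652, 0.0768, 0.101 and 0.0923, when the first or the third library labelled CybbKO ligated or the first or the second labelled CybbKO naive was left out. It held without the second library labelled CybbKO ligated (log2 fold change 1.26, adjusted p = 0.0464).

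Ccl5, a chemokine that cytotoxic lymphocytes store and secrete and that draws T and NK cells, had 0.579, 0.253 and 0.0364 CPM in WT naive and 0.249, 0.366 and 1.53 CPM in WT ligated libraries. It had 0.462, 0.472 and 0.946 CPM in CybbKO naive and 0.679, 2.78 and 0.456 CPM in CybbKO ligated libraries by label. One library set each ligated mean, the third in WT and the second under the CybbKO label. The ligated genotype difference of 0.86 ± 0.84 on the log2 scale was -0.33 without the second library labelled CybbKO ligated and 2.07 without the third WT ligated library. Libraries overlapped in all 4 comparisons of Ccl5.

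Ligation was compared with naive tissue within each genotype label to see how 8 days of ligature-induced inflammation changed these genes. In WT, 0 of the 7 tested members were called, whereas edgeR called 3.2% of all genes tested, 2.31% as higher. The member nearest to a call was Gzmb (2.30 ± 0.69 on the log2 scale, 4.91-fold, edgeR adjusted p = 0.0906). Its log2 fold change was 1.70 without the third WT ligated library and 3.17 without the third WT naive library (edgeR adjusted p = 0.294 and 0.0534). DESeq2 called Gzmb there (2.33, adjusted p = 0.0302), 1 of 9 members with an adjusted p, against 8.93% of all genes. Raw p was under 0.05 for 1 of the 7 members and for 19.9% of all genes. In 0 of the 10 genes did all WT ligated libraries lie above all WT naive ones, which 13.3% of tested genes did. Under the CybbKO label, 1 of 7 members was called, the higher Il2rb, beside 13% of all genes called and 9.95% called as higher. DESeq2 also called 1 of 9 members with an adjusted p, Il2rb, beside 17.8% of all genes. Gzmb was 2.62-fold higher there (1.39 ± 0.52, edgeR adjusted p = 0.105) and Klrd1 1.79-fold (0.84 ± 0.34, adjusted p = 0.137). Raw p was under 0.05 for 3 of the 7, Gzmb, Il2rb and Klrd1, and for 27.7% of all genes. All ligated libraries lay above all naive ones of that label for 3 of the 10 genes, Gzmb, Klrk1 and Il2rb, and for 18.5% of the tested genes. The median member log2 fold change was 0.42 in WT and 0.84 under the CybbKO label, against -0.03 over all genes in both. Without the third WT naive library the WT median was 0.06 over the 9 members then tested, of which 5 were higher. Without the second library labelled CybbKO ligated that label's median was 0.63, with 4 of 7 higher. The members' shares of edgeR calls were near or under the background.

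**Figure D3:**
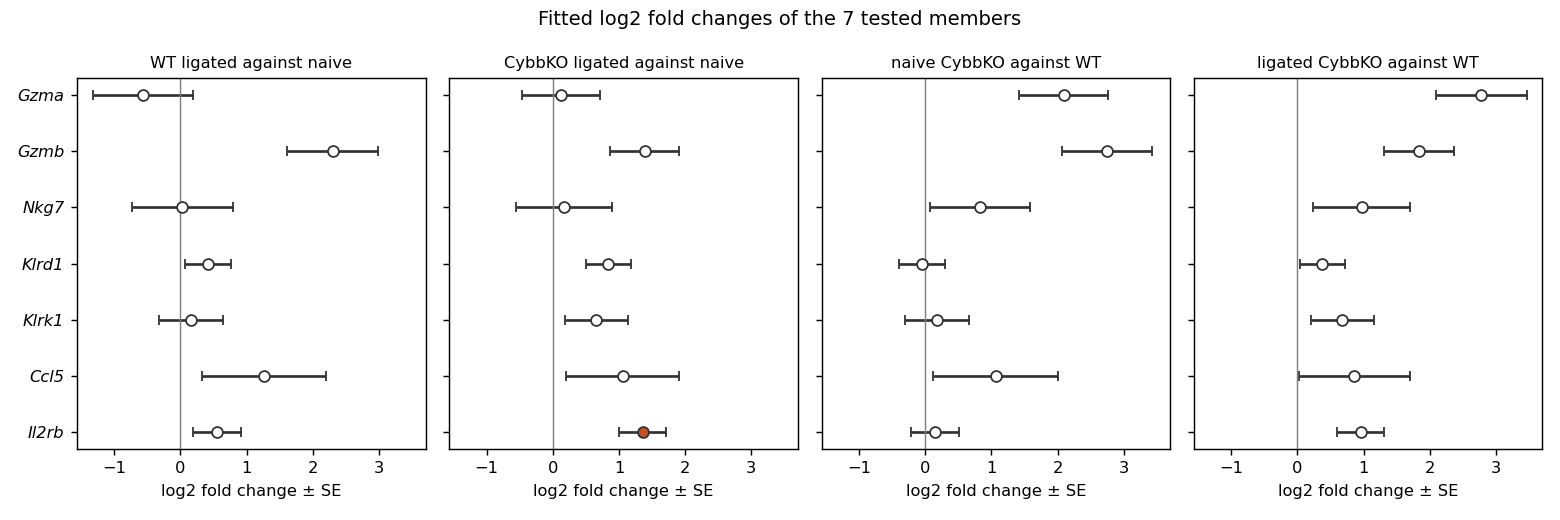
Fitted log2 fold changes (horizontal axis, points with 1 SE bars) of the 7 tested genes in the 4 comparisons; a filled point is called at an edgeR adjusted p under 0.05. Only Il2rb under the CybbKO label, ligated against naive, is filled, and Gzma and Gzmb lie farthest to the right in both genotype comparisons.

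The genotype labels were compared within ligated and within naive tissue, the question of the study being what loss of Nox2 does to gingival inflammation. EdgeR called 0 of the 7 members in ligated tissue and 0 in naive tissue, as it called 1 gene of all those tested in each (0.00665%), which was Cybb. DESeq2 called 0 of 9 members with an adjusted p in ligated and 0 of 10 in naive tissue, beside 0.112% (18 of 16053) and 0.011% (2 of 18143) of all genes. In ligated tissue raw p was under 0.05 for 3 of the 7 members by edgeR, Gzma, Gzmb and Il2rb, against 3.34% of all genes. All ligated libraries labelled CybbKO lay above WT for the same 3 of 10 genes, against 5% of the tested genes. In naive tissue raw p was under 0.05 for 2 of 7, Gzma and Gzmb, against 2.03% of all genes. The same 2 of 10 were free of overlap, against 2.08% of the tested genes. The members were chosen with earlier results of these libraries known. Both granzymes also passed the filter on low counts mainly through the libraries labelled CybbKO. These shares are thus a description and no test of the members. The median member log2 fold change was 0.95 in ligated and 0.83 in naive tissue, against 0.01 and 0.00 over all genes. These 4 comparisons share their libraries in pairs. The difference between the ligature changes of the 2 genotype labels was called for 0 of 7 members and 0% of all genes by edgeR, and raw p was under 0.05 for 0 members and for 2.27% of all genes. The exact two-sided permutation test of 3 libraries against 3 cannot go below p = 0.1, the value that groups without overlap have by construction.

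Genes that act with the 10 were on 7 lists of granule content, release machinery, receptors, ligands, cytokines, transcription factors and chemokines, also chosen with earlier results known. Their counts with ligation are to be read beside all genes tested, of which 9.95% were called higher under the CybbKO label and 2.31% in WT. The difference between the 2 ligature changes was called for 0 tested genes of any of the 7 lists, so the labels were not shown to differ in them. Of granule contents and death ligands, 13 genes were listed and 6 passed the filter. Under the CybbKO label 4 of these 6 rose with ligation and 1 fell, beside 0 calls in WT and 0 of 6 called for the difference between these changes. Srgn, the proteoglycan that packs granzymes in granules, rose by 2.23 ± 0.39 on the log2 scale (edgeR adjusted p = 0.00464), from 14.4, 8.30 and 15.7 CPM to 64.7, 34.7 and 80.7 CPM. Serpinb9, the inhibitor that protects cells from granzyme B, rose by 0.85 ± 0.23, the death ligand Tnfsf10 by 0.97 ± 0.27 and Ctsc, the cathepsin that activates granzymes, by 0.77 ± 0.22. These 4 genes are also expressed by myeloid and other cells. Gzmm, a granzyme of NK cells, fell by 1.85 on the log2 scale (SE 0.45, adjusted p = 0.0197), from 0.664, 1.66 and 2.04 CPM to 0.235, 0.535 and 0.434 CPM, opposite in direction to Gzmb. Gzmd, Gzme, Gzmf, Gzmg and Gzmn, near-identical granzymes whose reads the counting could split, were at 0 in all naive libraries. In WT ligated libraries Gzme, Gzmf, Gzmg and Gzmn were at 0 in all 3, and in CybbKO ligated libraries by label only Gzmg was. Gzmc, a further granzyme of this family, had 4.57, 1.96 and 0.656 CPM in WT naive, 1.37, 0.471 and 1.32 in WT ligated, 0.750, 0.832 and 3.90 in CybbKO naive and 1.07, 6.05 and 1.53 CPM in CybbKO ligated libraries by label. Gzmc was called in none of the 4 comparisons, and its groups overlapped. The release machinery (Lamp1, Vamp8 and others) had 0 calls among 7 tested genes in either genotype label, with medians of -0.19 and -0.05.

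Among receptors and adaptors other than the members, 3 of 12 tested genes rose with ligation under the CybbKO label and 0 in WT, with 0 of 12 called for the difference. They were Fcgr3 (1.81 ± 0.24 on the log2 scale, edgeR adjusted p = 0.00207), Tyrobp (1.73 ± 0.29, 0.00402) and Klrg1 (adjusted p = 0.0396). Fcgr3, an Fc receptor, and Tyrobp, an ITAM adaptor, are used by NK cells and by macrophages and neutrophils. Klrg1, an inhibitory receptor of mature NK and T cells, rested on few reads, with 0.0289, 0 and 0.122 CPM in CybbKO naive and 0.183, 0.374 and 0.456 CPM in CybbKO ligated libraries by label. Klrb1c, the NK1.1 marker, had 0.0577, 0.250 and 0.366 CPM in CybbKO naive and 0.157, 0.428 and 0.342 CPM in CybbKO ligated libraries by label, which overlap. The 8 tested ligands of NK receptors, among them H60c and Clec2d, had 0 calls in both labels.

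Of cytokines and their receptors, 6 of 11 tested genes rose with ligation under the CybbKO label, 1 fell, and 1 rose in WT, with 0 of 11 called for the difference. Under the CybbKO label Il2rg and Il2ra, the chains that join Il2rb in the interleukin-2 receptor, rose by 1.53 ± 0.29 and 2.42 ± 0.50 on the log2 scale (edgeR adjusted p = 0.00618 and 0.00996). The interleukin-18 receptor chain Il18rap rose by 2.13 ± 0.38 (adjusted p = 0.00489), from 2.89, 2.16 and 2.68 CPM to 10.4, 9.39 and 14 CPM. Il21r, the interleukin-21 receptor, rose under both labels, by 2.51 ± 0.56 in WT and 2.47 ± 0.54 under CybbKO. Il12rb2, an interleukin-12 receptor chain, fell by 0.99 on the log2 scale (SE 0.24, adjusted p = 0.0209) under the CybbKO label. Ifng, the interferon made by these cells, did not pass the filter and did not exceed 0.244 CPM in any library. Of transcription factors, Zeb2, Nfil3, Ets1 and Runx3, 4 of 8 tested, rose under the CybbKO label by 1.00 to 1.33 on the log2 scale, and 0 were called in WT, with 0 of 8 called for the difference. Tbx21, the T-box factor of effector NK and T cells, had 0.115, 0.0277 and 0.458 CPM in CybbKO naive and 0.0783, 0.909 and 0.319 CPM in CybbKO ligated libraries by label and was not called.

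Of chemokines and their receptors, 4 of 10 tested genes rose under the CybbKO label and 1 in WT, with 0 of 10 called for the difference. Cx3cr1, the fractalkine receptor, rose by 1.90 ± 0.29 on the log2 scale under the CybbKO label (edgeR adjusted p = 0.00279). Cx3cr1 also rose in WT, by 1.58 ± 0.29 (adjusted p = 0.0199). Ccl3 and Ccl4, chemokines that activated NK and T cells secrete, rose under the CybbKO label (adjusted p = 0.00482 and 0.0180), where Ccl3 went from 0.115, 0 and 0.153 CPM to 0.914, 1.74 and 1.60 CPM. Myeloid cells express these 3 genes too. In the genotype comparisons edgeR called 0 genes of these 7 lists in either tissue. Without the second library labelled CybbKO ligated, the counts of genes that rose under that label were 4 of 6 tested for granule contents, 0 of 7 for release machinery, 2 of 13 for receptors, 2 of 8 for receptor ligands, 5 of 11 for cytokines, 4 of 8 for transcription factors and 6 of 10 for chemokines, beside 13% of all 15172 genes tested called higher (19.4% in either direction). Without the third WT naive library the WT log2 fold change of Il21r was 2.56, as large as with it, but no longer called (edgeR adjusted p = 0.0519). The cytokine list then held 0 higher and 1 lower call in WT, beside 737 of 15185 genes called in all.

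**Figure D4:**
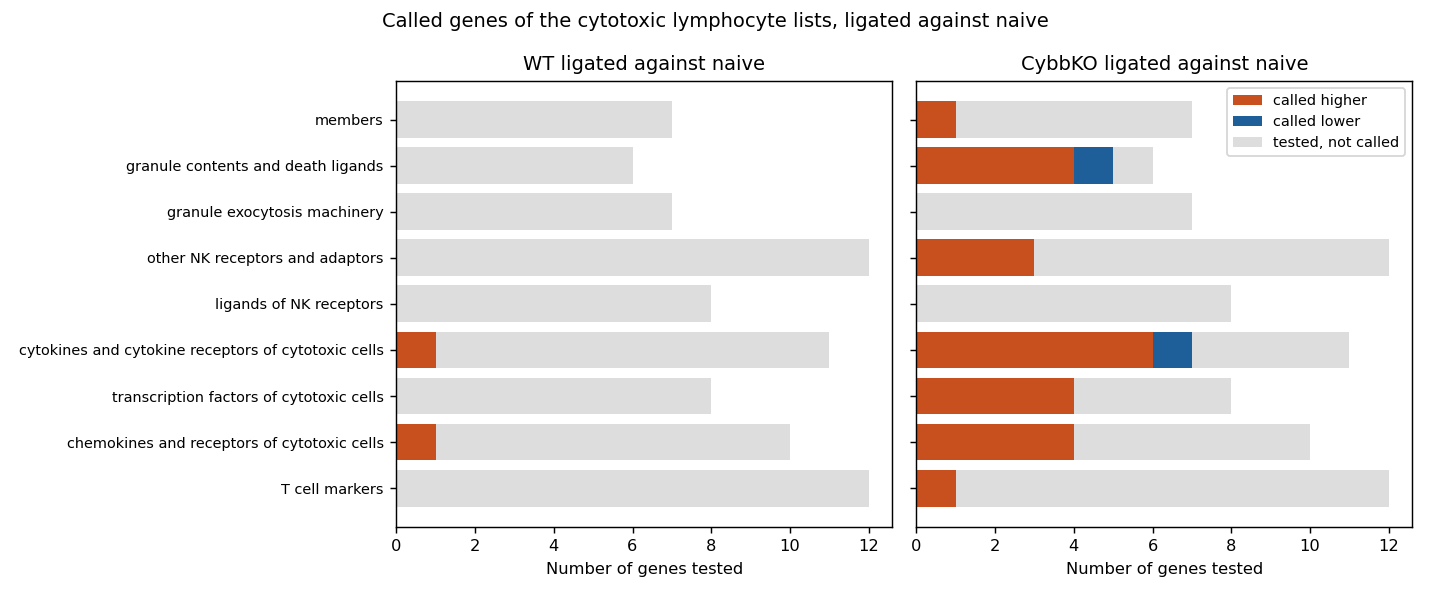
Number of tested genes (horizontal axis) of each list that edgeR called higher (orange) or lower (blue) or did not call (grey) in ligated against naive tissue, in WT (left) and under the CybbKO label (right). WT has 1 call each for cytokines and chemokines, and the CybbKO label has 0 calls for release machinery and receptor ligands.

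Markers of other cells moved in the same comparisons, and their part in the results was not tested. T cell markers (13 of 16 listed genes in the table) summed to 18.2 to 26 CPM in WT naive, 24.2 to 32.4 in WT ligated, 25 to 27.5 in CybbKO naive and 32.9 to 39.9 CPM in CybbKO ligated libraries by label. None of these 13 was at 0 in a whole group. Of the 12 tested, 0 were called in WT and 1 under the CybbKO label, where Cd4 rose by 1.94 ± 0.47 on the log2 scale (edgeR adjusted p = 0.0208). In the genotype comparison 12 of 12 T cell markers had a higher value in ligated and 11 of 12 in naive tissue, with 0 calls and medians of 0.41 and 0.31. Neutrophil markers summed to 371 to 843 CPM in WT naive, 1341 to 3765 in WT ligated, 817 to 922 in CybbKO naive and 2484 to 11637 CPM in CybbKO ligated libraries by label, with 1 and 7 of 7 rising in WT and under the CybbKO label, beside 2.31% and 9.95% of all genes called higher. Without the third WT naive library 7 of 7 still had a higher value in WT ligated tissue, with a median log2 fold change of 2.05 against 2.03 with it, but 0 were called, beside 4.85% of all genes called (2.79% higher). In ligated tissue 7 of 7 neutrophil markers (median log2 fold change 1.33), 7 of 7 monocyte and macrophage markers (0.49) and 5 of 5 fibroblast markers (0.29) had a higher value under the CybbKO label than in WT, with 0 calls. In naive tissue 5 of 7 (0.59), 0 of 7 (-0.26) and 0 of 5 (-0.69) did, also with 0 calls. Monocyte and macrophage markers rose for 2 and 7 of 7. The second library labelled CybbKO ligated had the lowest neutrophil sum of its group and the highest sum of the 10 cytotoxic genes, 21.9 CPM. Fibroblast markers rose for 2 and 4 of 5 and endothelial markers for 3 and 3 of 4. Of the marker lists of B cells, epithelium, muscle and glands, 0 genes rose with ligation under either label.

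**Figure D5:**
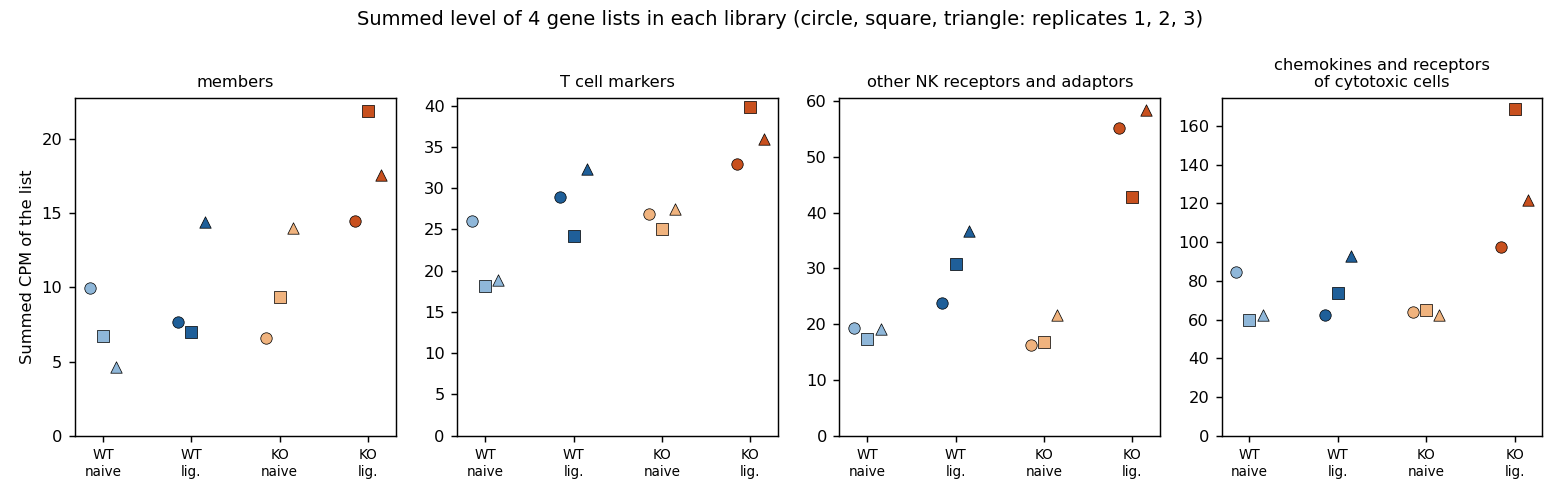
Summed CPM (vertical axes from 0) of the 10 genes and of 3 further lists in each of the 12 libraries by group (horizontal axis; lig. is ligated, KO is the label CybbKO); shapes mark the replicates. The second library labelled CybbKO ligated (square) is highest for the 10 genes, for T cell markers and for chemokines, and lowest of its group for the other NK receptors and adaptors.

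The library profile of the genes was described by the mean standardized log2 CPM of the 7 tested members. It was lowest in the third WT naive library (-1.60) and highest in the second library labelled CybbKO ligated (1.67), and the 3 ligated libraries of that label were at 0.72, 1.67 and 1.01. WT ligated libraries were at -0.78, -0.81 and 0.77, so the third of them reached the range of the libraries labelled CybbKO ligated. Libraries labelled CybbKO naive were at -0.72, 0.05 and 0.86, and the third of these lay in that range too. Within their groups, the third library labelled CybbKO naive was highest for 8 of the 10 genes, the first WT naive library for 7, and the third WT ligated and the second CybbKO ligated library by label for 6 each. The 8 genes whose profile over the 12 libraries lay closest to this mean, by root-mean-square distance, were Gbp7 (0.33), Oas3 (0.37), Gbp9 (0.38), Ms4a4b (0.39), Gbp4 (0.39), Gimap3 (0.40), Ddx60 (0.40) and Ifi47 (0.41), against a median of 1.38 over all tested genes. Gbp7, Gbp9, Gbp4 and Ifi47 are interferon-induced GTPases, Oas3 and Ddx60 antiviral interferon-stimulated genes, and Ms4a4b and Gimap3 genes of T lymphocytes. All 8 had their highest level in the second library labelled CybbKO ligated, as Gbp4 did with 60.8 CPM and a lowest library of 4.45 CPM. Without that library 2 of these 8, Gbp7 and Oas3, were still among the nearest 8. Among the members, Il2rb (0.41) and Ccl5 (0.48) were nearest to the mean profile that they help to form and Gzma (0.86) was farthest.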

How the data were processed

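Gingival RNA was measured in 12 libraries, 3 mice in each of 4 groups taken from the labels. The authors deposited raw read counts per gene without normalization. Per the methods, a stranded mRNA kit was used, STAR aligned the reads to GRCm38 and featureCounts counted them per strand; the submitters' processing notes name HTSeq (0.10.0), which leaves the counter unsettled. Sources differ on the mice's ages and the ligated side. Symbols and positions came from GENCODE M21 for 21939 of 21965 genes.

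Counts were fitted jointly over the 12 libraries with edgeR 4.0.16 (R 4.3.3; TMM, filterByExpr, 15046 genes, quasi-likelihood F test, Benjamini-Hochberg over all tested genes, called under 0.05). The common biological coefficient of variation was 0.240, so spread between mice and, for the scarce members, counting error limit precision. DESeq2 1.42.0 was an alternative, as were other scaling, filters, a robust fit, a fit of the compared libraries, a replicate block and each library left out. Tables were made in Python 3.11.15. Procedures were tested on simulated data. The labels give no batch. Per-kilobase levels used merged exon length.

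The members and lists were chosen with earlier results of these data known. Named genes were all members, Cybb, the 8 nearest profiles and, per list, up to 4 called genes and the 2 with the highest level, of which the text prints a part (some list genes are not reported here). Cd8a, Cxcl9, Gzmc, Klrb1c, Ifng, Tbx21 and the genes at 0 were named after their values were seen. Same-numbered replicates did not deviate together (18 pairs, correlation -0.23 to 0.28, 2 over 0.1), so numbers do not pair mice.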

Additional observations from a re-analysis of the deposited data

How the results depend on the processing

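The 7 tested members' values were recomputed under each alternative whose filter kept the gene (the stricter filter and the fit of compared libraries dropped some). Of 646 log2 fold changes, 601 kept direction and side of the threshold. Only 1 member value was called in the main fit, so this count mostly holds values that stayed uncalled. It also includes the contrast over both tissues, which was chosen after the values were seen. DESeq2 called 1 member in WT ligated against naive (Gzmb, where edgeR called 0) and 2 over both tissues (Gzma and Gzmb, where edgeR called 0). With the replicate block, 2 members were called under the CybbKO label, ligated against naive (Gzmb, log2 fold change 1.46, adjusted p = 0.0459, and Il2rb), instead of 1, while all genes called went from 1954 to 1573; it changed no other member's call, turned the WT ligature value of Nkg7 to -0.0709, and the numbers do not pair mice. Leaving out 1 library at a time gave 0 to 1 calls under the CybbKO label. Log2 fold changes that turned sign with 1 library left out, none of them called, ranged as follows. In WT ligated against naive, Nkg7 ranged from -0.95 to 0.40 and Klrk1 from -0.20 to 0.79. Under the CybbKO label, ligated against naive, Gzma ranged from -0.92 to 0.68, Nkg7 from -1.0 to 0.55 and Ccl5 from -0.14 to 1.47. In ligated CybbKO against WT, Nkg7 ranged from -0.20 to 1.95 and Ccl5 from -0.33 to 2.07, both lowest without the second library labelled CybbKO ligated, where DESeq2 also gave -0.20 and -0.33. In naive tissue Klrd1 ranged from -0.28 to 0.16, Klrk1 from -0.13 to 0.82 and Il2rb from -0.17 to 0.48, and DESeq2 without the third WT naive library gave -0.12 for Klrk1 and -0.0333 for Il2rb. The difference between ligature changes ranged from -0.36 to 1.25 for Gzma, -1.03 to 1.12 for Nkg7, -0.14 to 0.86 for Klrk1 and -1.40 to 1.00 for Ccl5. The genotype differences of Gzma and Gzmb kept their direction under all alternatives run. The causes were not tested. Prf1, Ncr1 and Eomes had at most 23 counts a library and were not tested in the joint edgeR fit.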
